A study of Mus musculus with 12 samples.

Results

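CD8+CD28low regulatory T cells from C57Bl/6 mice that lack Aire (AIRE ko, here KO) were compared with the same cells from wild-type mice of that strain (WT), both after activation. Activation meant 96 h of culture, per the labels, in the presence of an antibody against CD3 and of allogenic antigen-presenting cells (APC). The comparison took in 6 of the 12 whole-transcript arrays of the series, 3 activated KO and 3 activated WT arrays, chosen by their titles. The other 6 arrays held freshly isolated (native) KO and WT cells, 3 of each. They served to set a difference in activated cells beside that in native cells. Errors and p-values, the choice of array rows and the rescalings below also drew on them. The arrays are titled as biological replicates. The number of mice per array, the isolation of the cells and the age of the mice are not in the labels, so the errors below measure the spread between these arrays. Both activated groups shared the culture, the antibody and the antigen-presenting cells, and RNA of any such cells left in the culture would be on the arrays too.

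Aire is a transcriptional regulator that makes epithelial cells of the thymic medulla display antigens of other tissues, and mice without it lose part of their T cell tolerance. CD8+CD28low T cells are a regulatory subset of CD8 T cells with little of the costimulatory receptor CD28, and are studied for the control of inflammation in the gut. T cells stimulated through their receptor divide, take up more glucose, make granzymes and cytokines and change the chemokine receptors by which they migrate. The comparison asks which of these features differ, after the same stimulus, between cells from mice with and without Aire.

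Values are log2 expression levels, on which a difference of 1 is a doubling, and a level here belongs to the brightest array row of a gene. KO minus WT differences carry the standard error (SE) of a limma fit of all 12 arrays, which pools the spread of a gene over the 4 groups. The native arrays thus enter these errors. Their median standard deviation per gene was 0.122 in KO and 0.099 in WT cells, against 0.247 and 0.159 in activated cells. Olfactory receptor genes are silent in lymphocytes as far as is known and served as the floor: a gene counted as at background in a group where no array exceeded their 95th percentile on that array. By this rule 9356 of 19938 genes (46.9%) were at background in both activated groups.

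Activated KO array 3 stood apart from the other activated arrays. Its interquartile range was 2.19, against 2.67 to 2.79 on the others, save WT 2 at 2.45. It placed 31.7% of genes above the olfactory percentile, where WT 2 placed 42.4% and the remaining activated arrays 49.4% to 51.0%. With genes sorted by mean level into 5 bins of equal size and set against the WT mean, its 3 dimmest bins lay higher, by a median of 0.21, 0.25 and 0.08 and its 2 brightest bins lower, with medians of -0.43 and -0.37. KO 1 and KO 2 ran the other way in every bin, by no more than 0.12. A bright gene thus tends to look lower, and a dim gene higher, in the KO group with KO 3 included. Differences and list medians are therefore given for all 3 KO arrays and for KO 1 and KO 2 alone, save where a group was at background. The WT arrays differed in range among themselves, with WT 2 the narrowest, so list medians were also computed after quantile normalization of the 11 arrays without KO 3, in which every bin had a median difference of 0.00.

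**Figure D1:**
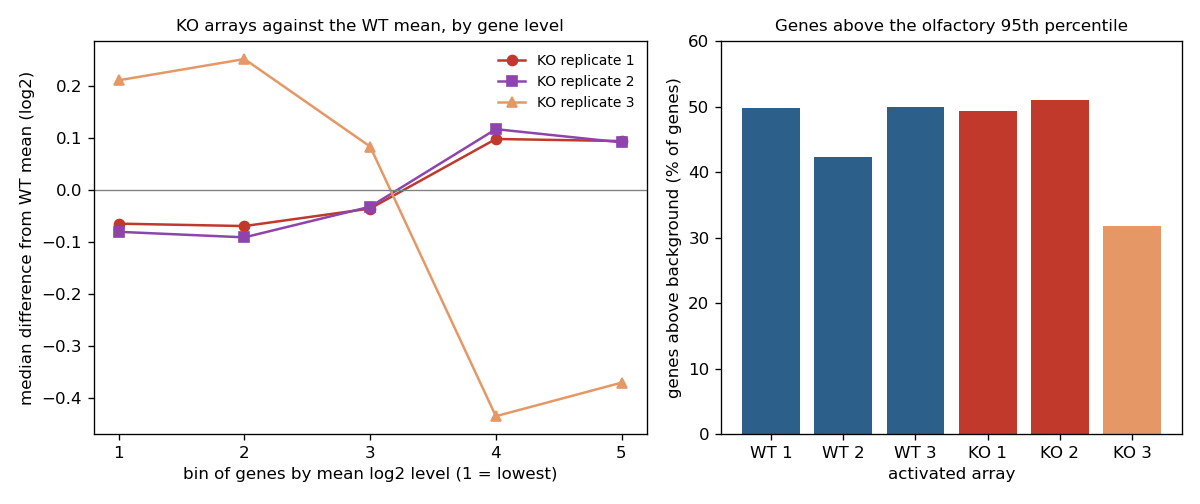
Left, the median log2 difference of each activated KO array from the mean of the 3 activated WT arrays, over 5 bins of the 19938 genes ordered by mean level. Right, the percentage of genes above the 95th percentile of olfactory receptor genes on each activated array. KO replicate 3 runs opposite to KO replicates 1 and 2 at all levels and has the fewest genes above background, 31.7%.

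Arrays also differed in transcripts that mark sex. Xist, which shuts down an X chromosome in female cells, had a level of 4.98 on KO 1, at 10.65 and 9.34 on KO 2 and KO 3, and at 10.83, 11.47 and 11.35 in WT cells. Native KO array 1 was likewise low in Xist, at 5.26. Uty, a Y-linked demethylase gene, lay at 8.72, 8.69 and 7.34 on KO 1, KO 2 and KO 3 and at 7.97, 7.25 and 7.67 in WT cells, so that KO 1 and KO 2 exceeded every WT array and KO 3 did not. For the Y-linked genes Eif2s3y and Kdm5d, KO 1 and KO 2 likewise exceeded every WT array and KO 3 did not. Their differences were 0.57 ± 0.29 and 0.52 ± 0.38, and without KO 3 0.92 ± 0.23 and 1.00 ± 0.30. Whether this difference in sex markers bears on the other genes was not tested.

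Aire itself could not serve to check the genotype. Its level was 5.73, 5.62 and 5.89 in KO and 5.56, 5.78 and 5.55 in WT cells, at background on all 6 arrays. All 11 measured markers of CD8 T cells, the labelled cell type, were above background in both groups. Cd8a, the CD8 alpha chain, stood at 11.48, 12.06 and 10.77 in KO and 11.72, 12.23 and 11.66 in WT cells, and Cd3e, a chain of the T cell receptor complex, differed by -0.02 ± 0.11, or 0.04 ± 0.10 without KO 3. Cd4 was at background in both groups. Cd28, whose low surface level defines the subset, gave clear RNA signal, at 10.99, 11.25 and 9.98 in KO and 11.06, 11.04 and 10.80 in WT cells. Of the markers of other cells, 13 of 15 for neutrophils, 24 of 31 for macrophages and dendritic cells, 10 of 13 for B cells and 13 of 16 for stroma were at background in both groups. Genes of MHC class II presentation, which antigen-presenting cells carry, were less uniform: 3 of 8, H2-Aa, Cd74 and Ciita, were at background in both groups and 5 were not. The mean level of the 8 was 6.19 to 7.49 on the KO and 7.07 to 7.38 on the WT arrays. The class II chain gene H2-Ab1 lay at 5.64 on KO 3 and at 8.41 to 9.95 on the other activated arrays. The part of RNA from other cells in the differences below was not tested.

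No single gene passed the test in the main fits, which take no account of the replicate number. A fit that compared KO and WT arrays within each replicate number called 25 genes without KO 3 and 0 with it, as described near the end. With all 3 KO arrays, limma called 0 of 19938 genes (0%) at an adjusted p under 0.05, and the smallest adjusted p was 0.9999. At an unadjusted p under 0.05 there were 87 genes (0.436%), 43 higher and 44 lower in KO cells. All 3 KO arrays exceeded all 3 WT arrays for 171 genes (0.858%) and lay under them for 177 (0.888%). Without KO 3 the call count was again 0, with a smallest adjusted p of 0.6959, while 653 genes (3.28%) had an unadjusted p under 0.05, 407 of them higher. KO 1 and KO 2 both exceeded the WT arrays for 1296 genes (6.5%) and both lay under them for 2232 (11.2%). KO arrays varied more among themselves: the standard deviation of a gene had a median of 0.247 in activated KO and 0.159 in activated WT cells. The genes named below are therefore values that did not pass in the main fits, and a separation of groups is to be read against these shares.

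Among genes above background whose arrays separated completely, the chemokine receptor gene Ccr2 had the smallest p-value of those higher in KO cells. CCR2 guides monocytes and effector T cells towards the chemokine CCL2. Its level was 10.14, 10.23 and 10.55 in KO and 9.41, 9.72 and 8.89 in WT cells. The lowest KO array thus exceeded the highest WT array, and KO 3 was the highest of all. The difference was 0.96 ± 0.20 (SE, n = 3 per group), a 1.95-fold higher level, and 0.84 ± 0.20 without KO 3. Over 27 other ways of fitting or scaling it ranged from 0.62 to 1.21. Ccr2 is a gene that WT cells raised on activation, by 2.56 on the log2 scale. In native cells it lay at 7.20, 6.89 and 7.02 in KO and 6.78, 6.96 and 6.60 in WT, where the groups overlapped. The change of the genotype difference with activation was 0.70 ± 0.28, which did not pass the test.

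The genes described next are the others of the 10 separated genes with the smallest p-values among those higher in KO cells. Among these 10, Dglucy, a mitochondrial D-glutamate cyclase, had the largest difference after Ccr2. It lay at 7.82, 7.46 and 7.51 in KO and 7.26, 6.94 and 6.91 in WT cells, a difference of 0.56 ± 0.18, or 0.60 ± 0.19 without KO 3. Enpp4, an ectoenzyme that splits a dinucleotide, followed with 7.79, 7.51 and 7.60 against 7.44, 7.09 and 7.02, a difference of 0.45 ± 0.19, or 0.47 ± 0.22 without KO 3. On both genes KO 1 was the highest array, and KO 3 lay between KO 2 and KO 1. Rsu1, a component of integrin adhesions, was brighter and tighter, at 11.08, 11.06 and 11.31 in KO and 10.83, 10.80 and 10.79 in WT cells, with a difference of 0.34 ± 0.10, or 0.27 ± 0.08 without KO 3. Rsu1 and Rbl2, which encodes the retinoblastoma relative p130, are bright genes that lay highest on KO 3, against the general direction of bright genes on that array. Rbl2 stood at 9.54, 9.72 and 9.93 in KO and 9.37, 9.34 and 9.51 in WT cells, a difference of 0.32 ± 0.12, or 0.22 ± 0.11 without KO 3. The others of this group were Klre1, described with its family below, the translation elongation kinase gene Eef2k at 0.40 ± 0.15, the Wnt co-receptor gene Lrp5 at 0.27 ± 0.09, and Mpv17l and Gpm6b at 0.29 ± 0.12 and 0.26 ± 0.11. Without KO 3 these 4 differences were 0.45 ± 0.16, 0.30 ± 0.09, 0.19 ± 0.10 and 0.31 ± 0.11.

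Of the genes lower in KO cells, Tspan32, a tetraspanin of blood cells, had the smallest p-value. It lay at 6.60, 7.32 and 6.18 in KO and 7.72, 7.75 and 7.59 in WT cells. The WT arrays lay close together while the KO arrays were spread, with KO 2 the closest to WT. The difference was -0.99 ± 0.26, and -0.73 ± 0.24 without KO 3. Ifi27l2a, an interferon-inducible gene, had the larger difference of -1.31 ± 0.42, which rested in good part on KO 3: its levels were 7.91, 7.92 and 5.93 in KO and 8.82, 8.46 and 8.40 in WT cells. Without KO 3 it was -0.64 ± 0.18, still with both KO arrays under all WT arrays. Tlr1, the partner of the lipopeptide receptor TLR2, lay at 7.93, 8.08 and 7.70 in KO and 8.43, 8.77 and 8.16 in WT cells, a difference of -0.55 ± 0.16, or -0.45 ± 0.16 without KO 3. KO 2 and WT 3 were close to each other.

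Snord73b, a small nucleolar RNA, was lower at 9.32, 9.11 and 8.31 in KO against 9.87, 9.38 and 9.89 in WT cells, a difference of -0.80 ± 0.23. KO 3 was the lowest array, and without it the difference was -0.50 ± 0.17. Meis3, a homeobox gene that fell by 1.45 in WT cells on activation, had nearly equal KO levels of 6.35, 6.37 and 6.35 against 6.77, 6.73 and 6.57. Its difference was -0.33 ± 0.11 with and without KO 3. The remaining genes of this group were the aminoacylase gene Acy1 at -0.43 ± 0.15, the amino acid transporter gene Slc43a1 at -0.44 ± 0.16, the kinase gene Dclk2 at -0.42 ± 0.14, the Rab5 regulator gene Usp6nl at -0.40 ± 0.13 and 1190007I07Rik at -0.47 ± 0.17. Without KO 3 these 5 differences were -0.43 ± 0.16, -0.37 ± 0.17, -0.31 ± 0.13, -0.29 ± 0.12 and -0.34 ± 0.16. For all 5 of these genes the closest KO and WT arrays differed by less than the standard error, as they did for Tlr1 and Snord73b. They were KO 1 at 6.93 and WT 2 at 6.97 for Acy1. For Usp6nl both KO 2 and WT 2 were at 6.32, and for Slc43a1 both KO 2 and WT 3 at 6.52. Among the higher genes the same held for Enpp4, Rbl2, Klre1, Eef2k, Mpv17l and Gpm6b. Of the 20 genes higher or lower, 8 exceeded the olfactory percentile on KO 3, which was 7.31. Among the lower genes these were only Tlr1 and Snord73b, so for the others the value on KO 3 that completes the separation was at background. The same held among the higher genes for Eef2k, Lrp5, Mpv17l and Gpm6b. For Mpv17l, KO 3 was the highest array, at 6.86.

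**Figure D2:**
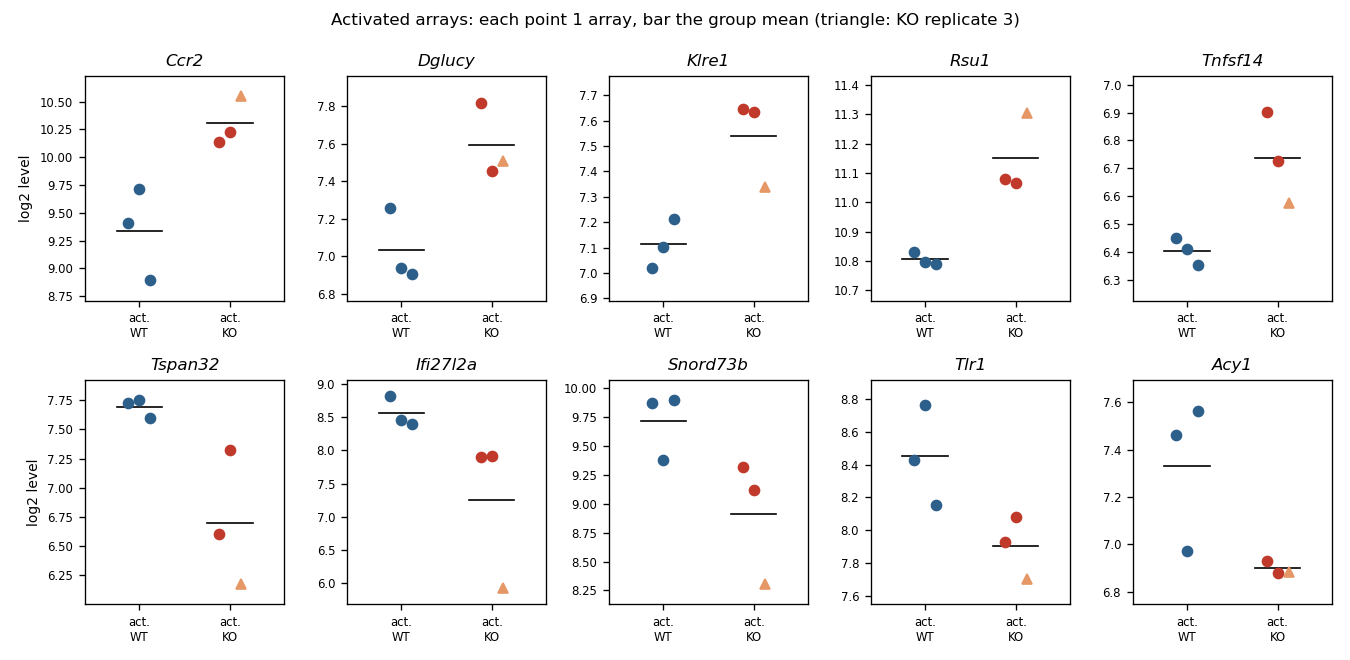
Log2 levels of 10 genes on the 3 activated WT (blue) and 3 activated KO arrays (red, with KO replicate 3 as an orange triangle), and the group means as bars. The upper genes lie higher and the lower genes lower on all 3 KO arrays than on all 3 WT arrays, with Ifi27l2a at 5.93 on KO replicate 3 and 7.91 and 7.92 on the other KO arrays. For Tnfsf14, Tspan32, Ifi27l2a and Acy1, KO replicate 3 lies under the olfactory percentile of 7.31 on that array.

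The same choice made without KO 3 gave largely other genes: of 20 genes in each choice, 4 were shared, namely Tspan32, Ifi27l2a, Snord73b and Meis3. Tjp1, which encodes the junction scaffold ZO-1, had the smallest p-value, at 7.46 and 7.56 on KO 1 and KO 2 and 6.34, 5.97 and 6.65 in WT cells. The difference was 1.19 ± 0.18 (SE, n = 2 and 3), whereas KO 3, at 5.58, lay below all WT arrays and brought the difference to 0.55 ± 0.41. Trim13, a ubiquitin ligase gene, lay at 10.57 and 10.70 against 10.14, 9.46 and 9.66, with KO 3, at 9.59, within the WT range. Its difference was 0.88 ± 0.18, and 0.54 ± 0.26 with KO 3. Gm4924 lay at 7.32 and 7.36 against 6.62, 6.64 and 6.55, and was higher in native KO cells as well, by 0.67 ± 0.19. Its activated difference of 0.74 ± 0.13 was 0.49 ± 0.19 with KO 3. Besides Uty, the others higher were Vwa5a at 0.66, Klhl30 at 0.74, Gm10767 at 0.56, the cyclophilin gene Ppic at 0.38, and Dlg5 and Rab27b, whose WT levels were at background and whose differences were at least 0.32 and 0.18. Those lower were the nucleoside transporter gene Slc29a2 at -0.43, the microRNA gene Mir92b at -0.44, Drd1 at -0.33, and Ldlrad3, Olfr1084 and Olfr916, whose levels on KO 1 and KO 2 were at background. For these 3 the bounds were -0.32, -0.06 and -0.19. With KO 3 included, Vwa5a, Klhl30, Gm10767 and Ppic stood at 0.32, 0.30, 0.31 and 0.24, and Slc29a2, Mir92b and Drd1 at -0.35, -0.24 and -0.11. Olfr916 and Drd1 changed direction under another scaling or with another array left out.

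Groups of genes were described by how many measured members lay higher or lower in KO cells and by the median difference, beside all genes, of which 9510 of 19938 (47.7%) lay higher with a median of -0.01, and 9572 (48.0%) with a median of -0.01 without KO 3. No member of any list was called in the main fits. Of 30 lists of T cell, metabolic and stress programmes, 1 kept the sign of its median with and without KO 3 under all 4 rescalings tried: the NK-type receptors, on the higher side. The rescalings were quantile normalization, a common median and interquartile range, and centring of each array on its median or on its olfactory receptor median. The last of these moved the median of all genes to 0.13 without KO 3 and to -0.13 with it. For every other list below, the direction holds only for the settings named with it.

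**Figure D3:**
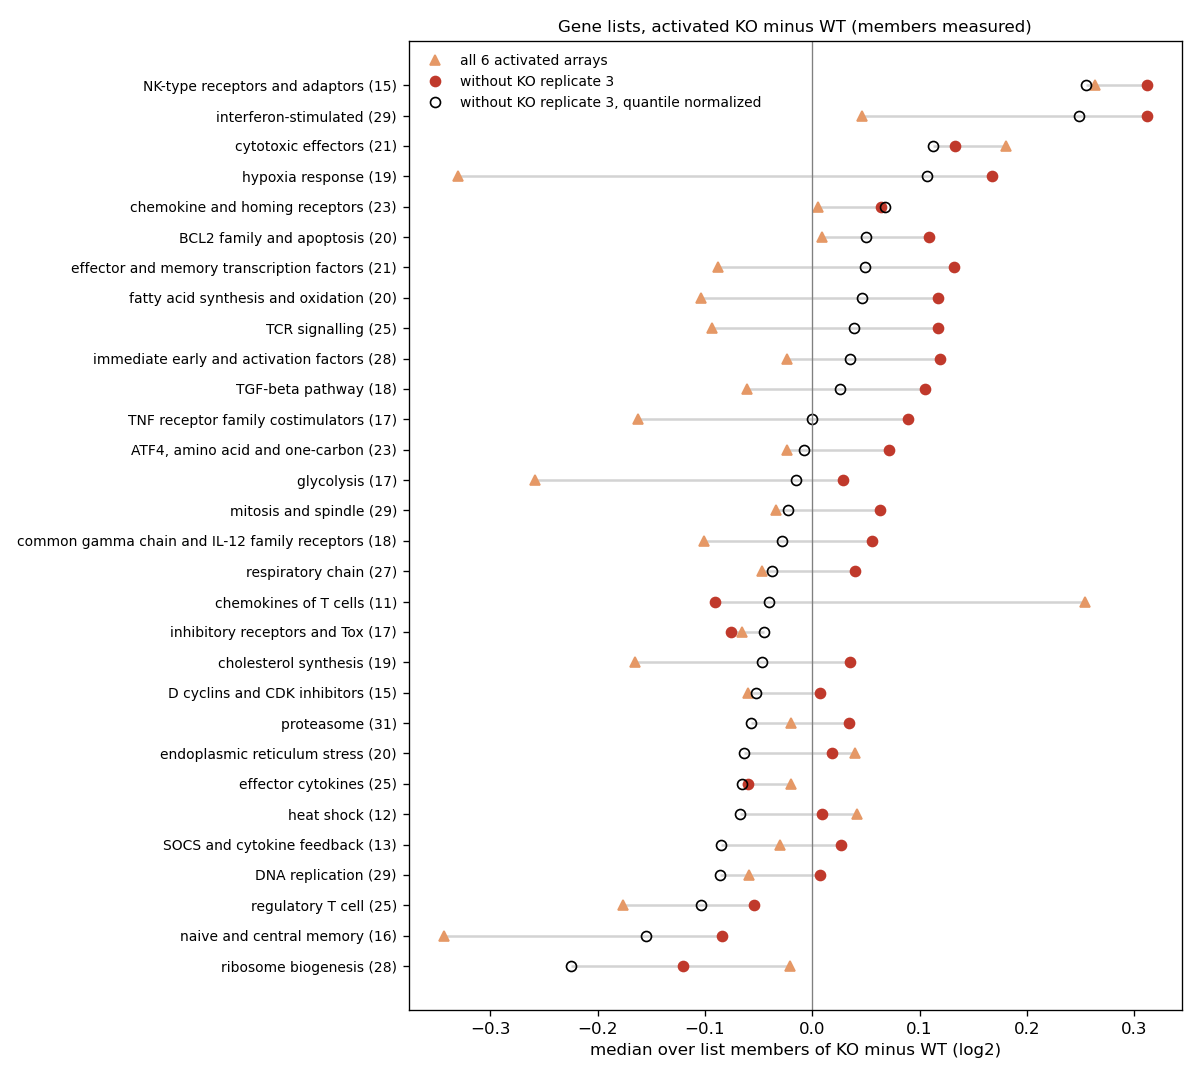
Median KO minus WT log2 difference over the measured members of each gene list (number in parentheses) in activated cells, with all 6 arrays (triangles), without KO replicate 3 (filled circles) and without it after quantile normalization (open circles). The hypoxia list moves from -0.33 to 0.17 when KO replicate 3 is left out, while the NK-type receptor list stays between 0.26 and 0.31.

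NK-type receptors are lectin-like receptors, first known from natural killer cells, that stimulated CD8 T cells also carry. Of 15 measured receptors and adaptors, 12 lay higher in KO cells with a median difference of 0.26. Without KO 3 the count was 13 of 15 and the median 0.31, and 6 members separated upwards, beside 6.5% of all genes. Over rescalings the median was 0.14 to 0.43 with KO 3 and 0.22 to 0.45 without it. With each activated array left out in turn it was 0.12 to 0.32 and 0.22 to 0.38. Native KO cells were higher in all 15, with a median of 0.50.

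Klre1, a receptor gene of this family, separated with all arrays, at 7.64, 7.64 and 7.34 in KO and 7.02, 7.10 and 7.21 in WT cells. Its difference of 0.43 ± 0.14, or 0.53 ± 0.14 without KO 3, was close to that of native cells, 0.44 ± 0.14. Klrc2, which encodes the activating receptor NKG2C, lay at 8.68, 9.17 and 7.999 in KO and 8.07, 8.22 and 8.19 in WT cells, and Klrc1, which encodes the inhibitory NKG2A, at 11.27, 11.69 and 10.72 against 10.93, 11.11 and 10.85. On both, KO 1 and KO 2 exceeded all WT arrays and KO 3 lay below them. The same held for Klra3, a Ly49 receptor gene, while for Klra6 KO 3, at 9.89, was level with WT 3 at 9.87. Klra5 had the largest difference without KO 3, 0.97 ± 0.34, from 8.52 and 7.92 against 7.96, 6.63 and 7.16, with groups that overlapped, and 0.50 ± 0.40 with it. Klrd1, which encodes CD94, the partner of NKG2A and NKG2C, lay at 11.93, 12.18 and 11.61 in KO and 11.91, 12.11 and 11.77 in WT cells, and Klrk1, which encodes NKG2D, differed by -0.15 ± 0.18, or -0.02 ± 0.18 without KO 3. Klrk1 had differed by 0.55 ± 0.18 in native cells. Taken per array, 14 of 15 members lay above the WT mean on KO 1, 11 on KO 2 and 6 on KO 3.

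Ncr1, which marks natural killer cells, was at background in both groups. The 8 measured NK cell markers, most of them also in the receptor list, had a mean level of 7.74 to 8.40 on the KO and 7.30 to 8.19 on the WT arrays. Of the 8, 2 were at background in both groups. In KO cells 7 of 8 lay higher, with a median of 0.32, or 0.18 without KO 3. Taken per array, 8 lay above the WT mean on KO 1, 4 on KO 2 and 7 on KO 3, with medians of 0.28, -0.04 and 0.83. The part of these markers in the receptor difference was not tested. In RNA from a whole culture, more cells that carry a receptor and more RNA of it per cell cannot be told apart.

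Interferon-stimulated genes lay higher on KO 1 than in WT cells, little higher on KO 2 and lower on KO 3. Interferons act through transcription factors that bind a DNA element built from repeats of GAAA, and the induced genes encode antiviral proteins. Of 29 measured, 17 lay higher in KO cells with a median difference of 0.05, and 27 of 29 with a median of 0.31 without KO 3. The median was 0.58 on KO 1, with 25 of 29 above the WT mean, 0.09 on KO 2 with 18 of 29, and -0.29 on KO 3 with 8 of 29. With all arrays the sign changed between rescalings, from -0.08 to 0.11, and without KO 3 it stayed between 0.22 and 0.45. Left with KO 2 as the only KO array, the median was 0.09. The native median was 0.03.

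The element GAAANNGAAA, on either strand, was looked for from 250 bases before to 50 after the start of each gene in RefSeq promoters of GRCm38.p6. It was present for 13 of the 23 list members with a promoter in that table (56.5%), for 1079 of all 27025 genes (3.99%) and for 0 of 12 NK-type receptor genes. To show the element, the 150 bases before the start are printed for 3 antiviral genes of the list, chosen among those that hold it there, with the element in capitals. On the reverse strand it reads TTTCNNTTTC.
Ifit1, chr19:34640739-34640888, plus strand: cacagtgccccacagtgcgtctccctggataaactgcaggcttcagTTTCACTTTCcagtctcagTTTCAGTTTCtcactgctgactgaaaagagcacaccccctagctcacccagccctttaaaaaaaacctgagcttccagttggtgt
Ifit3, chr19:34583379-34583528, plus strand: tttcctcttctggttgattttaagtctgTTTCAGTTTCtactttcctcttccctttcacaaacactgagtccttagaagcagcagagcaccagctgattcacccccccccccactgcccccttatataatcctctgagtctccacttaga
Rsad2, chr12:26456453-26456602, minus strand: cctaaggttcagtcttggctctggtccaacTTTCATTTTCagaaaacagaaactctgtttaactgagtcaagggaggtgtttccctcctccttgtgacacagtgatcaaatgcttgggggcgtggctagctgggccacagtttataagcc
A match is a stretch of letters, and binding was not measured.

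Ifit1, whose product binds viral RNA and which holds 2 copies of the element, lay at 8.73, 6.98 and 6.84 in KO and 7.58, 6.66 and 6.36 in WT cells. KO 1 was the highest array, WT 1 the second, and the groups overlapped, with a difference of 0.65 ± 0.51 and 0.99 ± 0.54 without KO 3. Ifit3 had 8.996, 7.17 and 7.45 against 8.14, 7.44 and 6.57. Rsad2, which encodes viperin, had 7.02, 6.08 and 5.74 in KO cells against 6.16, 5.70 and 5.74 in WT, where it was at background. Mx1 and Oasl2, further antiviral genes, repeated the pattern with 8.86, 7.31 and 6.98 against 7.88, 6.55 and 7.09 and with 8.72, 6.80 and 7.06 against 7.78, 6.34 and 6.56. In each of them array 1 was the highest of its genotype. Ddx58, which encodes the RNA sensor RIG-I, was the tightest of the list, with 10.59, 10.35 and 9.92 in KO and 10.12, 9.84 and 9.78 in WT cells. Its difference was 0.37 ± 0.17, and without KO 3 0.56 ± 0.15, with KO 1 and KO 2 above all WT arrays. Without KO 3, 2 of the 29 members separated upwards, a share near the 6.5% of all genes. With all arrays 0 of 29 did, beside 0.858% of all genes. Ifi27l2a, which is not in the list, lay lower on the same KO arrays, as given above.

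**Figure D4:**
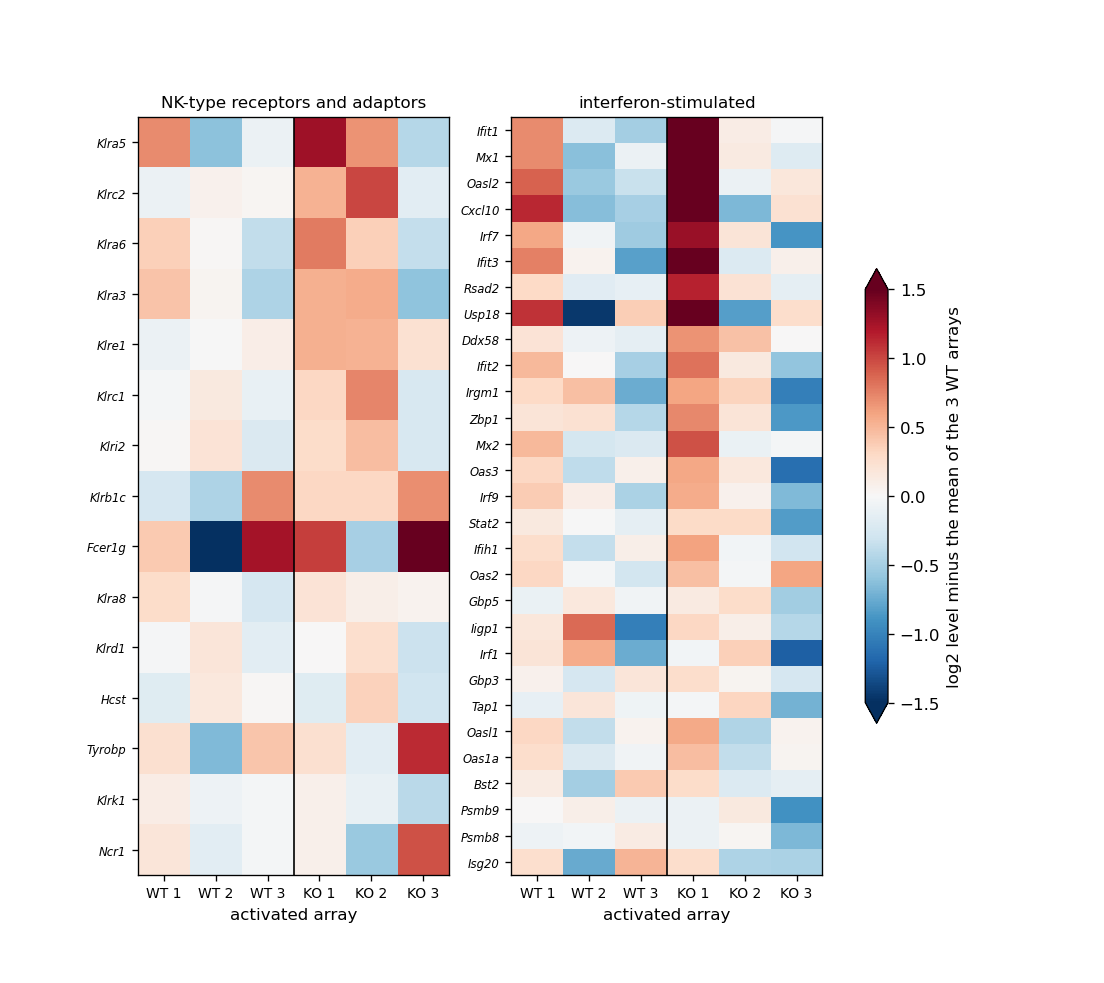
Log2 level on each activated array minus the mean of the 3 activated WT arrays, for 15 NK-type receptor and adaptor genes (left) and 29 interferon-stimulated genes (right), ordered by the difference without KO replicate 3; colours end at 1.5 in each direction. Most receptor genes are above the WT mean on KO replicates 1 and 2 (14 and 11 of 15), while the interferon genes are highest on KO replicate 1 (25 of 29 above).

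Cytotoxic effector genes lay slightly higher: 18 of 21 with a median of 0.18, and 19 of 21 with a median of 0.13 without KO 3. Rescalings without KO 3 gave medians from -0.01 to 0.27. Without both KO 3 and WT 2, the narrow WT array, 10 of 21 lay higher and the median was 0.00. Fasl, the ligand of the death receptor Fas, lay at 9.30, 9.04 and 8.60 in KO and 8.50, 8.16 and 8.83 in WT cells, a difference of 0.48 ± 0.24, or 0.67 ± 0.23 without KO 3. Fasl had differed by 0.51 ± 0.24 in native cells. Gzmb and Prf1, which encode granzyme B and perforin, the main killing proteins of CD8 T cells, differed by 0.18 ± 0.25 and 0.23 ± 0.53, and by 0.07 ± 0.28 and 0.06 ± 0.60 without KO 3. The granzyme genes Gzmd and Gzme ranged widely in both groups: Gzmd was 9.86, 8.67 and 10.48 in KO and 8.41, 6.44 and 10.66 in WT cells, Gzme 10.10, 8.42 and 10.54 against 8.28, 7.02 and 10.24. On these array 2 was the lowest of each genotype, and the groups overlapped. Compared within replicate numbers without KO 3, both were called by limma, at 1.84 and 1.60 (adjusted p = 0.000255 and 0.000149). On number 3 the differences of Gzmd and Gzme were -0.18 and 0.30.

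Cytokine genes showed no common direction, with 12 of 25 higher with all arrays (median -0.02) and 9 of 25 without KO 3 (median -0.06). Tnfsf14 and Tnfsf8, which encode the TNF family ligands LIGHT and CD30L, were the members that separated. Tnfsf14 lay at 6.90, 6.73 and 6.58 in KO and 6.45, 6.41 and 6.35 in WT cells, and Tnfsf8 at 8.31, 7.97 and 8.23 against 7.84, 7.91 and 7.22. Their differences were 0.33 ± 0.14 and 0.51 ± 0.23, and without KO 3 0.41 ± 0.15 and 0.48 ± 0.26. Ifng, the interferon gamma gene, followed the array number more than the genotype, at 9.28, 6.86 and 11.16 in KO and 9.26, 6.87 and 9.75 in WT cells. Il2 was at background in both groups, and Tgfb1 differed by -0.02 ± 0.18, or -0.06 ± 0.20 without KO 3. Of the chemokine genes, Xcl1, which attracts cross-presenting dendritic cells, lay at 7.95, 6.61 and 8.84 in KO and 7.09, 6.70 and 6.37 in WT cells, with a difference of 1.08 ± 0.42 that was 0.56 ± 0.33 without KO 3.

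Among receptors for homing, Itgb7, the beta chain of the gut-homing integrin, lay opposite to Ccr2. It stood at 7.997, 8.99 and 6.95 in KO and 8.63, 9.16 and 9.14 in WT cells. KO 2 lay within the WT range, and the difference of -1.001 ± 0.37 was -0.49 ± 0.25 without KO 3. Itgae, the alpha chain that pairs with it, was at 5.60, 6.82 and 5.86 against 5.79, 7.32 and 5.62, and Ccr9, the receptor for migration to the small intestine, was at background in both groups after activation. Cxcr3, a receptor of effector T cells, differed by -0.22 ± 0.64 with KO 3 and 0.51 ± 0.55 without it, and Cd44, the adhesion receptor of effector cells, by 0.17 ± 0.27 and 0.42 ± 0.25. Over the whole list 12 of 23 lay higher, with a median of 0.01, and 14 of 23 without KO 3, with a median of 0.06.

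Genes of regulatory T cells lay lower in KO cells in 21 of 25 cases, with a median of -0.18. Without KO 3 it was 17 of 25 with a median of -0.05, which reached 0.09 under another scaling. Foxp3, the defining factor of CD4 regulatory cells, was at background in both groups. Ctla4, an inhibitory receptor gene, lay at 9.60, 11.09 and 6.46 in KO and 10.15, 10.91 and 10.21 in WT cells. KO 3 alone was low, and the difference of -1.37 ± 0.83 was -0.08 ± 0.39 without it. Tnfrsf4, which encodes OX40, lay at 7.91, 9.08 and 7.20 against 8.97, 8.53 and 10.11, and Lag3 at 8.33, 9.75 and 7.39 against 8.88, 9.10 and 10.41. Their differences were -1.14 ± 0.44 and -0.97 ± 0.50 with KO 3, and -0.71 ± 0.41 and -0.42 ± 0.44 without it, with groups that overlapped. Il10, the gene of the suppressive cytokine interleukin 10, was 7.52, 6.85 and 5.66 against 7.85, 5.57 and 8.48, as variable within WT cells as between the groups. Il2ra, which encodes CD25, was bright and alike, at 12.85, 12.50 and 12.85 against 12.90, 12.28 and 13.00. Icos, Tnfrsf18 and Tnfrsf9 differed by -0.32 ± 0.27, -0.32 ± 0.20 and 0.29 ± 0.29, and Pdcd1, which encodes PD-1, by -0.24 ± 0.25. Without KO 3 these 4 differences were 0.09 ± 0.13, -0.08 ± 0.16, 0.26 ± 0.33 and -0.39 ± 0.27, so that Icos changed sign.

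Naive and central memory genes lay lower in 15 of 16 cases with a median of -0.34, and in 9 of 16 with a median of -0.08 without KO 3. The median turned to 0.25 when WT 2 was left out as well, and reached 0.06 by rescaling. It was -0.23 on KO 1, with 5 of 16 above the WT mean, and 0.22 on KO 2, with 10 of 16. Igfbp4 and Dapl1, transcripts typical of resting T cells, were the lowest without KO 3: Igfbp4 was 7.16, 8.03 and 6.57 in KO and 8.09, 8.55 and 7.79 in WT cells, and Dapl1 10.67, 11.52 and 10.53 against 11.76, 12.19 and 10.89. In both genes array 2 was the highest of its genotype. Ccr7, the receptor that holds T cells in lymph nodes, differed by -0.28 ± 0.52 and Il7r, the survival receptor, by -0.31 ± 0.24. Without KO 3 the values were 0.35 ± 0.43 and -0.09 ± 0.22.

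Several metabolic lists changed sign with KO 3, and their members show how far that array stood from the others. Of 19 genes of the hypoxia response, which low oxygen and T cell stimulation raise, 17 lay lower with a median of -0.33. Without KO 3, 16 of 19 lay higher with a median of 0.17, which rescaling moved between -0.05 and 0.31. That rested on KO 2, with 17 of 19 above the WT mean and a median of 0.34, since KO 1 alone had 9 of 19 and a median of -0.08. Egln3, an oxygen-sensing hydroxylase gene, was 10.88, 11.69 and 7.15 in KO and 11.21, 11.19 and 11.55 in WT cells. Native cells held it at 7.01 to 7.24, above their olfactory percentiles of 6.12 to 6.41. The value on KO 3 was at background, under the percentile of 7.31 on that array, so it cannot be equated with the native level. Ndrg1 had the same form with 10.72, 11.37 and 7.21 against 10.71, 10.57 and 10.77, and native levels of 7.61 to 7.99. It too was at background on KO 3. Ak4, an adenylate kinase gene, and Bnip3, a mitophagy receptor gene, lay between the native and the activated level on KO 3. Bnip3 was 8.94 there, 11.09 to 11.74 on the other activated arrays and 6.07 to 6.61 on the native ones. Ak4 was 7.52 on KO 3, near the olfactory percentile of 7.31 there, with 10.85, 10.49 and 10.85 in WT cells and 5.05 to 5.30 on the native arrays. Each of these 4 genes lay further below the WT mean on KO 3 than the -0.43 and -0.37 of the 2 brightest bins of genes.

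Glycolysis genes lay lower in 17 of 17 cases with all arrays (median -0.26) and in 6 of 17 without KO 3 (median 0.03). Cholesterol synthesis moved from 1 of 19 higher to 15 of 19, with medians of -0.17 and 0.04. T cell receptor signalling genes moved from 4 of 25 higher to 22 of 25, with medians of -0.09 and 0.12. The latter count again rested on KO 2, with 24 of 25 above the WT mean and a median of 0.23, against 12 of 25 and -0.03 on KO 1. For cholesterol synthesis KO 1 had 15 of 19 and a median of 0.09, and KO 2 had 8 of 19 and -0.01. Without KO 3, the medians of these 3 lists changed sign between rescalings. Not all genes were low on KO 3. Ccl9, a chemokine gene, stood at 8.91 on KO 3 and between 5.56 and 6.36 on the other activated arrays, and Ccl3 at 12.33 where the others lay between 7.99 and 10.40. All 11 chemokine genes lay above the WT mean on KO 3, 7 of 11 on KO 1 and 0 of 11 on KO 2.

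**Figure D5:**
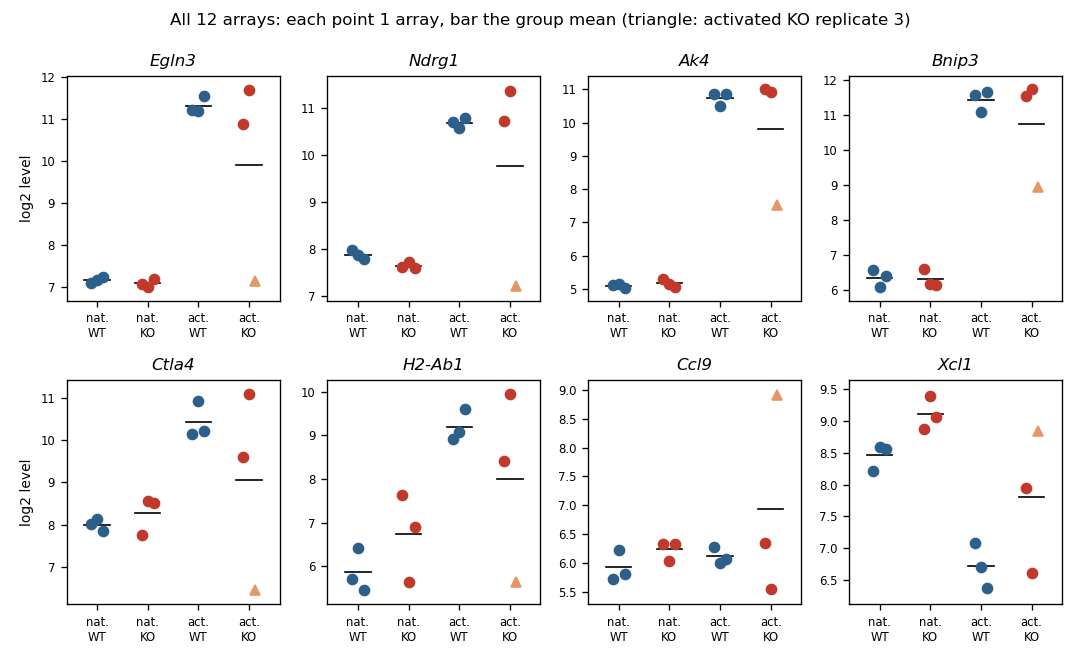
Log2 levels of 8 genes on all 12 arrays in 4 groups of 3 (WT blue, KO red, activated KO replicate 3 as an orange triangle), with group means as bars. On Egln3 and Ndrg1, activated KO replicate 3 lies at 7.15 and 7.21, under the olfactory percentile of 7.31 on that array, and on Ccl9 it is the highest array at 8.91.

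KO 1 and KO 2 were not alike either. Of 28 ribosome biogenesis genes, 24 lay above the WT mean on KO 1 and 2 on KO 2. For 29 DNA replication genes the counts were 24 and 2, and for 31 proteasome genes 26 and 5. The medians were small, 0.09 and -0.30, 0.15 and -0.12, and 0.19 and -0.13. Mitosis and spindle genes, which activation raised the most of all lists in WT cells (29 of 29 called higher, beside 9.72% of all genes, with a median of 3.21), differed between genotypes by a median of -0.03 with and 0.06 without KO 3.

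Whether a genotype difference changed with activation was tested as the interaction of genotype and state. Limma called 0 genes, with 86 (0.431%) at an unadjusted p under 0.05. Without KO 3 it again called 0, with 414 (2.08%) at an unadjusted p under 0.05 and a smallest adjusted p of 0.893. Of the genes named above for their separation with all arrays, Slc43a1 had the smallest interaction p-value, with an interaction of -0.70 ± 0.23 from a native difference of 0.26 ± 0.16 and an activated one of -0.44 ± 0.16. Without KO 3 it was -0.63 ± 0.23. That of Tspan32 was -0.93 ± 0.37, from a native difference of -0.06 ± 0.26, and -0.67 ± 0.32 without KO 3. That of Ccr2 was 0.58 ± 0.27 without KO 3. Klrk1 had an interaction of -0.70 ± 0.26, and of -0.57 ± 0.24 without KO 3. For Ctla4 the value of -1.66 ± 1.18 rested on KO 3 and was -0.37 ± 0.52 without it. Klre1, at -0.01 ± 0.20 and 0.09 ± 0.18 without KO 3, and Fasl, at -0.03 ± 0.33 and 0.16 ± 0.31, had interactions within their standard errors. None of these passed the test.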

How the data were processed

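Total RNA was labelled as biotinylated sense DNA by the Affymetrix whole-transcript assay, as the labels' protocols state. For each of 12 arrays the authors deposited 35556 log2 values. Partek and RMA are named in the submitters' processing notes, with versions and options not given in the sources used here. Differences near background are compressed by RMA, and whether the arrays were aligned to one distribution is not settled by these sources.

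Rows were named through the platform annotation and updated by Entrez identifier to RefSeq GRCm38.p6. One symbol was given for 21789 rows, several for 1621 and none for 12146; 21698 were matched. The brightest row of each gene over all arrays was kept, leaving 19938 genes. Rows with no single symbol (13767) entered only a fit of every row; some genes that the naming rule lists, Tcf7 among them, had none and were not analysed here. The number of arrays limits the precision.

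Means of 4 groups were fitted with limma 3.58.1 in R 4.3.3 (lmFit, eBayes) over all 12 arrays, and again without activated KO array 3. P-values were adjusted by Benjamini-Hochberg over 19938 genes; calls needed an adjusted p below 0.05. Where 1 group was at background, the difference is a bound from the olfactory receptor 95th percentile. The code was tested on simulated data.

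Genes named were the 10 with the smallest unadjusted p-values in each direction among separated genes above background, with all arrays and without KO array 3; up to 4 members of each list; and a set of T cell genes whatever their values. Members, lists and rules were chosen with earlier results of these data known. Alternatives were other scalings, row choices, filters, fits, the replicate number as a block and each array left out. Those that left out KO array 3 together with WT array 2 or KO array 1, and its quantile normalization, were chosen after seeing the data.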

Additional observations from a re-analysis of the deposited data

How the results depend on the processing

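The counts of called genes stayed at 0 under the planned rescalings, filters, row choices and variance settings, with each array left out in turn (range 0 to 0), and in the fits added after seeing the data; the exception was the replicate block. No count could be had for the interaction from the 6 activated arrays alone. With the replicate number as a block and KO array 3 left out, limma called 25 genes, 21 higher and 4 lower in KO cells, and 76 (60 higher, 16 lower) in the 5 activated arrays alone; the interaction gave 6 (4 and 2). Whether the numbers pair the arrays is not settled. The labels give the KO and the WT array of a replicate number a common running number within each state, without saying what it marks. The deviations of same-numbered arrays correlated across genes at 0.58, 0.40 and 0.16 in native cells and at 0.69, -0.02 and -0.01 in activated cells, and activated KO arrays 1, 2 and 3 correlated best with WT arrays 1, 1 and 2. These deviations were taken from group means, and that of activated KO includes KO array 3, so the correlations cannot settle a pairing. The main fits treat the activated arrays as sharing only a number, and a pairing remains possible. Among the 25 under this block were Tjp1 at 1.36 (adjusted p = 0.00247), Uty at 1.09 (0.0107), Gzmd at 1.84, Gzme at 1.60, Fasl at 0.84, Mx1 at 0.87, S1pr1 at -1.06 and Dapl1 at -0.88, chosen after their values were seen. Kdm5d and Eif2s3y, Y-linked like Uty and described above with the sex markers, were also called, each at 0.91. Of the 25, 4 had 1 sign on all 3 numbers: Gzme (1.81, 1.39 and 0.30), S1pr1 (-1.08, -1.03 and -0.32), Dapl1 (-1.08, -0.67 and -0.36) and Fcer1g (0.64, 1.14 and 0.27). The others reversed on number 3. The calls rest on numbers 1 and 2, so for these genes only number 3 was free to differ in sign. Over all genes 8.85% had 1 sign on all 3 numbers, which is not a like measure for that count. Among 36 genes named by separation, Olfr916 turned to 0.0295 by quantile normalization. With an array left out it ranged from -0.363 to 0.118, and Drd1 from -0.327 to 0.00442. Of the values for lists, 1194 moved by less than the spread between arrays and 20 by more. Many of these settings, such as a native array left out or another variance setting, cannot move a difference. The spread also includes KO array 3, so these counts do not show that the list medians are stable. The 13767 rows with no single symbol gave 0 calls, with 264 at an unadjusted p under 0.05. Genes near background are measured least well, and KO array 3 has the fewest above it.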

Other observations

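Some genes followed the array number across both genotypes. S1pr1, the receptor by which T cells leave lymphoid tissue, lay at 7.76, 9.34 and 6.35 on activated KO arrays 1, 2 and 3 and at 8.84, 10.37 and 6.67 on the WT arrays of the same numbers. Prf1 lay at 11.33, 10.53 and 11.45 in KO and 10.95, 9.47 and 12.19 in WT cells, with array 2 the lowest of each genotype. Cxcl10, an interferon-induced chemokine gene, was highest on array 1 in both, at 8.27 and 7.22, with 5.40 and 6.31 on the other KO and 5.44 and 5.59 on the other WT arrays. These genes were chosen after their values were seen.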
